A study of Mus musculus with 16 samples.

Results

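The genes described here are the core of the Hippo pathway and the genes that its effectors YAP and TAZ switch on, chosen by gene symbol from a fixed list of 40. Of these, 38 had a probe set under that symbol, 18 of 19 pathway components and 20 of 21 targets, among 23279 genes in all. Stk3 and Areg had none and were not analysed here. RNA came from livers of males, 16 months old, and each sample was measured on 1 one-colour array. Controls were livers of 3 mice without the deletion (mice 10, 11 and 12), and the labels do not say which alleles or transgenes they carried. The deleted mice were bred from an Axin1 fl/fl line and an Alfp-Cre line, whose Cre is expressed in hepatocytes of the embryo, and deletion in other cells of the tissue was not measured. They gave non-tumoral liver next to tumours from 5 mice (81, 121, 123, 124 and 1931) and 8 tumours from 6 mice (81, 90, 93, 121, 123 and 124). Mouse 121 gave 3 tumours, 1 without a number and those titled Tumor2 and Tumor3, and in tests the mean of those 3 stood for the mouse.

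In the Hippo pathway, MST kinases (Stk3 and Stk4) with their scaffold Sav1 activate the LATS kinases with their partners Mob1a and Mob1b, and LATS phosphorylates the co-activators YAP (Yap1) and TAZ (Wwtr1), which are then kept out of the nucleus and degraded. Unphosphorylated YAP and TAZ enter the nucleus, bind TEAD factors and switch on genes such as Ccn1, Ccn2 and Ankrd1. In liver the pathway restrains organ size, and loss of Nf2, Sav1 or the kinases in mice leads to overgrowth and tumours. Because YAP and TAZ are controlled mainly at the level of protein, the RNA of a component does not measure the activity of the pathway. Axin1 is a scaffold of the complex that degrades beta-catenin, and that complex has also been described to hold YAP and TAZ.

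The TEAD factors bind DNA at the letters GGAATG, and upstream sequences of Wwtr1 and of 4 targets are shown as examples of promoters that hold them. Promoters from RefSeq (build GRCm38.p6; 250 bases before and 50 after the start) were found for 29 of the 38 genes. Of these 29, 14 held GGAATG on either strand (48.3%), against 16.6% of all 27025 genes in the table; counted over single windows the shares were 45.7% of 35 and 14.7% of 32851. The genes with a match were Ccn1, Ankrd1, Ajuba, Axl, Crim1 and Ptpn14 among the targets and Yap1, Wwtr1, Tead3, Lats2, Sav1, Mob1a, Vgll4 and Amotl2 among the components. Of the targets with an unadjusted p under 0.05 between tumour and adjacent liver, Nt5e, Myof, Tgfb2 and Gadd45a had a promoter in the table and no match. The AP-1 letters TGANTCA, searched on both strands, were found in 1 of the 29, F3 (3.45%, against 8.97% of all genes). Each line gives the 250 bases before the start, with the GGAATG match in capitals, read as CATTCC where it lies on the other strand. The windows are chr3:145649986-145650235 (minus strand) for Ccn1, chr19:36119845-36120094 (minus strand) for Ankrd1, chr14:54577662-54577911 (minus strand) for Ajuba, chr17:78199998-78200247 (plus strand) for Crim1 and chr3:57575911-57576160 (minus strand) for 1 of the 2 listed starts of Wwtr1.
Ccn1: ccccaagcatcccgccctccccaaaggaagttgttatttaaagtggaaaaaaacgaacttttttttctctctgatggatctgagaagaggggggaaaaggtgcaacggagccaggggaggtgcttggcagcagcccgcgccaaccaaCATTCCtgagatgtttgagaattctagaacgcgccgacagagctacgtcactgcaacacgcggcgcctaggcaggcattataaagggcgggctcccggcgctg
Ankrd1: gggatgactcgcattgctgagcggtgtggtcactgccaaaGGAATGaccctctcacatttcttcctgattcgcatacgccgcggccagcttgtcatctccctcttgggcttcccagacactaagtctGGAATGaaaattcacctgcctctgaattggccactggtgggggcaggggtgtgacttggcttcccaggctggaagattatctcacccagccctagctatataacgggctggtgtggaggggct
Ajuba: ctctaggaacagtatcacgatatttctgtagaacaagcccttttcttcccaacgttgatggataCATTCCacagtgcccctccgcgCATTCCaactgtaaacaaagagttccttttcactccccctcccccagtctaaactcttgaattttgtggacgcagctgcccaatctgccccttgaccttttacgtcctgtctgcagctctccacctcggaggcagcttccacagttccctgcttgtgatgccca
Crim1: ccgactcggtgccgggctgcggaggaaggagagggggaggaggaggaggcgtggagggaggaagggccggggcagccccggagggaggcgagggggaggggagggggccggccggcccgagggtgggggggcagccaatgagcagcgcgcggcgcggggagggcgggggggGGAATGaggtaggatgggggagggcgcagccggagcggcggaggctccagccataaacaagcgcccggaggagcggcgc
Wwtr1: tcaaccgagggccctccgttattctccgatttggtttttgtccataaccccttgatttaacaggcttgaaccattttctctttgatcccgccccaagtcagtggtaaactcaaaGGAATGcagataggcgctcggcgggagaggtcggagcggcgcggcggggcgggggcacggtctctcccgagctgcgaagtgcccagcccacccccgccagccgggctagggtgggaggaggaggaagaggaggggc
Counted in bases from the start, with bases before it negative, the match began at -103 in Ccn1, -79 in Crim1 and -136 in Wwtr1. Ankrd1 had 2 matches, at -210 and -123, and Ajuba had 2, at -186 and -164. A match says only that these letters are present; binding was not measured, and the base composition of these windows was not compared with that of others.

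The deleted gene, Axin1, had a mean log2 value of 5.26 in controls (SD 0.20, n = 3), 4.20 in adjacent livers (SD 0.21, n = 5) and 4.44 in tumours (SD 0.31, n = 6). Neither tissue of deleted mice overlapped the controls, and the differences were -1.06 (limma, adjusted p = 0.255) and -0.83 (limma, adjusted p = 0.102), which did not pass at 0.05. Where the probe set lies relative to the deleted exons is not given in the labels. The 7 measured hepatocyte markers had mean log2 values between 11.26 and 11.72 on all 16 arrays. Control 10 stood apart in markers of inflammatory cells: 7 neutrophil markers had a mean of 6.30 there, against 3.45 to 4.34 on the other arrays, and 8 macrophage markers had 8.87, against 4.79 to 7.06. All values are log2 intensities after normalization by the authors, so a difference of 1 is a doubling, and levels of different genes cannot be set against each other. The number of mice limits the precision of every value.

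None of the 38 genes passed the test between tumours and adjacent liver (limma, 0 at an adjusted p under 0.05 over all 23279 genes, where 0.155% of all genes passed). The smallest adjusted p was 0.138, for Ajuba. With the mouse as a random block, 0 of the 38 and 206 of all genes passed, in place of 36. At an unadjusted p under 0.05, 8 of the 38 were higher in tumours (21.1%, against 6.95% of all genes) and 2 were lower (5.26%, against 8.32%). The 8 were Wwtr1, Tead4, Ajuba, Myof, Crim1, Nt5e, Tgfb2 and Gadd45a, and the 2 were Nf2 and Nuak2. Targets lay higher as a group than components. The median log2 difference was 0.34 over the 20 targets, 14 of them above 0, and 0.02 over the 18 components, 11 of them above 0, where the median of all genes was -0.03. The 8 tumour arrays and the 5 adjacent arrays overlapped in each of the 38 genes. Over all genes 0.601% were higher and 0.567% lower in tumours with no overlap. These shares are so small that 0 of 38 does not set these genes apart.

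**Figure D1:**
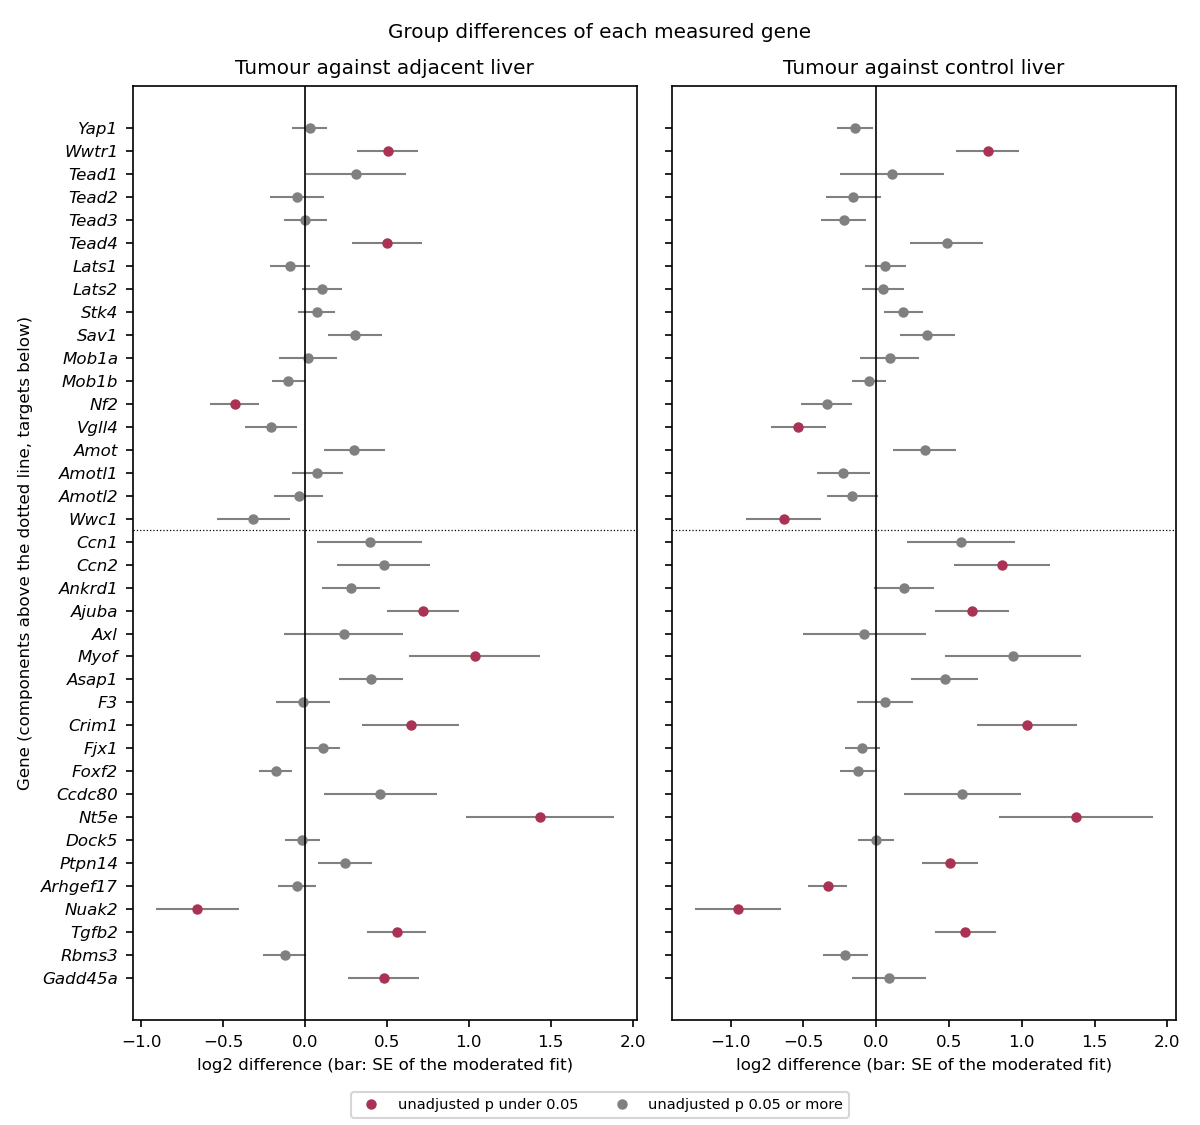
Log2 difference (x axis) of each measured gene (y axis) between tumours (n = 6 mice) and adjacent liver (n = 5) on the left and control liver (n = 3) on the right; bars are SE of the limma fit and red points have an unadjusted p under 0.05. The red points above 0 on the left are 6 targets, Wwtr1 and Tead4; none of the 38 genes passed after adjustment.

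Against control liver the picture of counts was alike, and these comparisons share the tumour arrays. None of the 38 passed after adjustment (limma, 0 at an adjusted p under 0.05, where 0.0258% of all genes passed), and the smallest adjusted p was 0.157, for Wwtr1. At an unadjusted p under 0.05, 7 were higher in tumours (18.4%, against 5.65% of all genes): Wwtr1, Ccn2, Ajuba, Crim1, Nt5e, Ptpn14 and Tgfb2. Another 4 were lower (10.5%, against 6.88%): Vgll4, Wwc1, Arhgef17 and Nuak2. Tumour and control arrays did not overlap in Wwtr1, Ccn2 and Tgfb2, which were higher (7.89%, against 1.35% of all genes). Nor did they in Vgll4, which was lower (2.63%, against 1.92%). The margins were narrow. The lowest tumour array had 6.876 in Wwtr1, 6.512 in Ccn2 and 3.986 in Tgfb2, and the highest control 6.861, 6.441 and 3.982. In Vgll4 the highest tumour array had 6.828 and the lowest control 6.876. The median difference was 0.33 over the targets and -0.0014 over the components, against -0.04 over all genes.

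Between adjacent and control liver none of these genes passed after adjustment (limma, 0 at an adjusted p under 0.05, 0.0% of all genes), and 0 of 38 had an unadjusted p under 0.05, where 1.61% of all genes were higher and 2.94% lower at that level. The median difference was -0.04 over components and -0.02 over targets. The largest differences were 0.39 for Crim1 (SE 0.36) and -0.39 for Gadd45a (SE 0.26). Wwc1 alone had no overlap between the groups and was lower in adjacent liver (2.63% of 38, against 2.04% of all genes). The margin was narrow, with 6.239 in the highest adjacent array and 6.244 in the lowest control. With no overlap, 0 of 38 were higher, against 2.18% of all genes.

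Of the co-activators, Wwtr1 was higher in tumours than in both other tissues at an unadjusted p under 0.05, and Yap1 was not. Yap1 (Entrez gene 22601), which encodes YAP, was nearly flat. Its log2 value was 8.02, 7.93 and 8.37 in controls 10, 11 and 12, and 8.01, 8.0, 7.75, 7.95 and 7.95 in adjacent livers 81, 121, 123, 124 and 1931. The 8 tumour arrays ran from 7.64 over a median of 7.91 to 8.14. The groups overlapped, and the difference between tumour and adjacent liver was 0.03 (SE 0.11, limma, adjusted p = 0.93). Leaving out 1 mouse from 1 group at a time gave -0.0159 to 0.0499.

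Wwtr1 (Entrez gene 97064), which encodes TAZ, was 6.86, 6.21 and 6.79 in controls 10, 11 and 12. Adjacent livers 81, 121, 123, 124 and 1931 had 6.86, 7.15, 6.64, 7.08 and 6.69. Tumours ran from 6.88 over a median of 7.40 to 7.90, the highest being tumour 90 and the lowest tumour 81. Every tumour array lay above the highest control. Of the 8, 6 lay above the highest of the 8 non-tumour arrays, including all 3 of mouse 121. The difference was 0.50 (SE 0.18, limma, adjusted p = 0.20) against adjacent liver and 0.77 (SE 0.21, limma, adjusted p = 0.157) against control, a fold of 1.42 and 1.70. In the 4 mice with both tissues the tumour was higher in each, by 0.02 in mouse 81, 0.23 in mouse 121, 0.40 in mouse 124 and 0.94 in mouse 123. In bulk tissue a change in the RNA per cell and a change in the share of cells that make it cannot be told apart, here and in the results that follow.

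**Figure D2:**
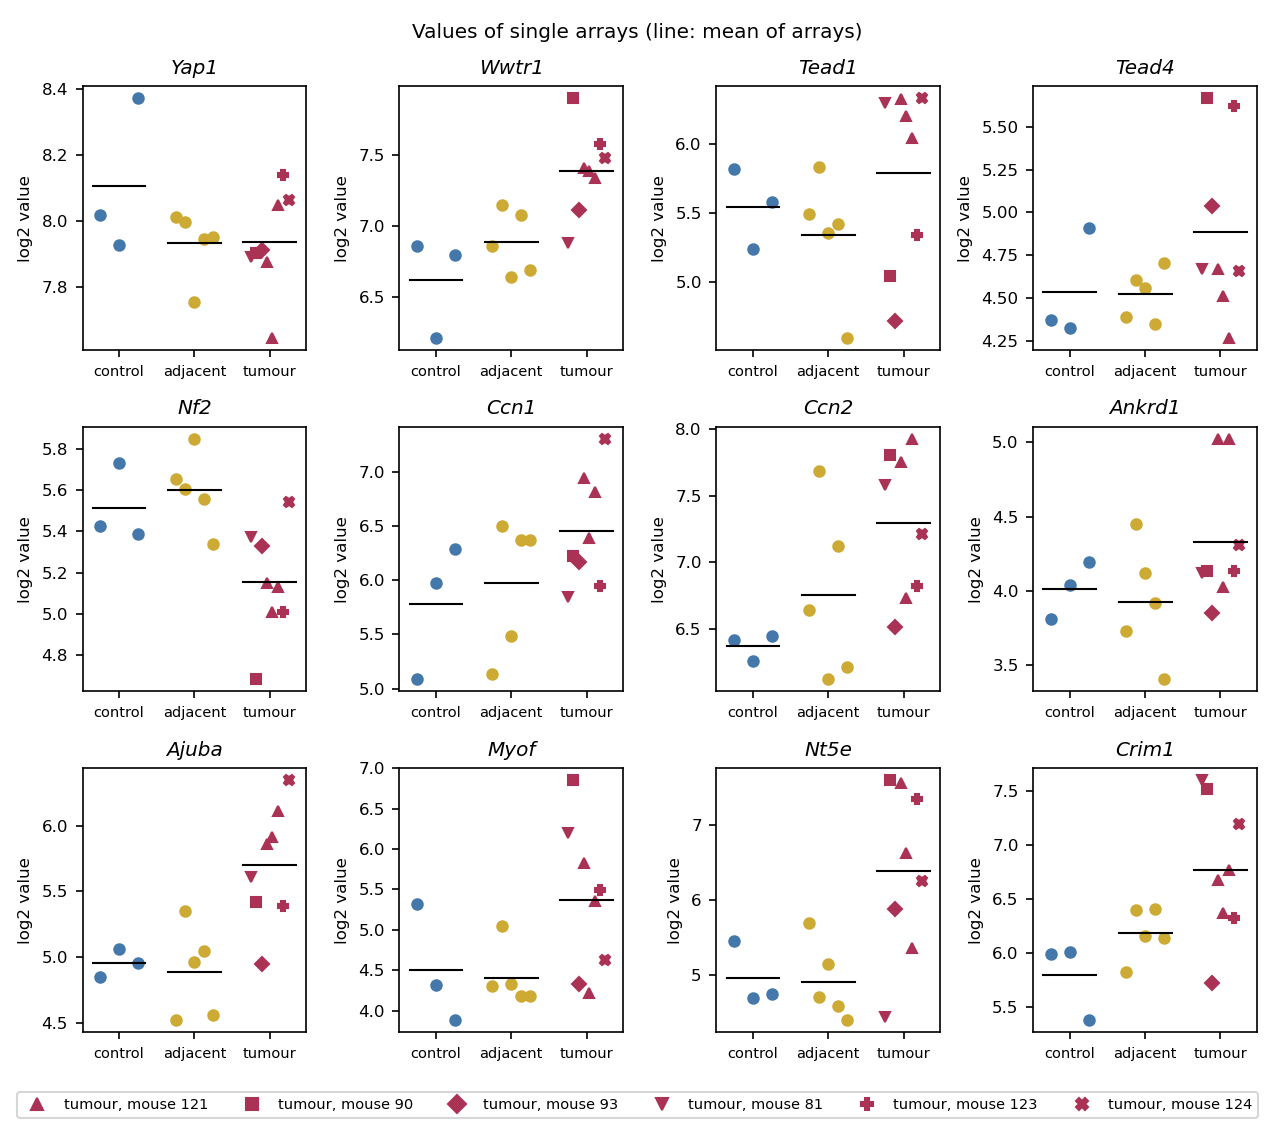
Log2 values (y axis) of single arrays in control, adjacent and tumour tissue (x axis) for 12 genes; each point is 1 array, the symbol of a tumour point marks its mouse and the line is the mean of arrays. Wwtr1 lay higher on the tumour arrays than on any control array, Yap1 overlapped between groups, and Tead1 and Tead4 split the tumours in opposite ways.

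The TEAD factors, the DNA-binding partners of YAP and TAZ, differed among themselves. Tead4 was 4.37, 4.33 and 4.91 in controls 10, 11 and 12 and 4.39, 4.60, 4.56, 4.35 and 4.71 in adjacent livers 81, 121, 123, 124 and 1931. Its tumour arrays ran from 4.26 over a median of 4.67 to 5.67, and the groups overlapped. Tead4 was above every non-tumour array in tumours 90 (5.67), 123 (5.62) and 93 (5.04). It lay between 4.26 and 4.67 on the 5 other tumour arrays, 3 of them from mouse 121. The difference from adjacent liver was 0.50 (SE 0.21, limma, adjusted p = 0.278).

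Tead1 split the tumours into the same sets in the other direction, a pattern noticed after the values were seen and described without a test. In tumours 90, 93 and 123 it was 5.05, 4.72 and 5.34. On the 5 other tumour arrays, 3 of them from mouse 121, it was 6.04 to 6.33, above every non-tumour array (4.59 to 5.83). Its mean difference from adjacent liver was 0.31 (SE 0.31, limma, adjusted p = 0.682), which averages over these unlike tumours. Tead2 and Tead3 differed from adjacent liver by -0.05 (SE 0.16) and 0.00 (SE 0.13). Tead2 was among 3 of the 38 genes, with Fjx1 and Foxf2, that did not exceed the overall median (4.43) on 3 or more arrays, where differences of dim probe sets are compressed.

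The kinase core that restrains YAP and TAZ was close to level. Differences between tumour and adjacent liver were 0.07 for Stk4, which encodes an MST kinase (SE 0.11), -0.09 for Lats1 (SE 0.12) and 0.10 for Lats2 (SE 0.12). The scaffold Sav1 was at 0.31 (SE 0.16, adjusted p = 0.397 with limma), and the LATS partners Mob1a and Mob1b were at 0.02 (SE 0.18) and -0.10 (SE 0.10). Sav1 lay above every non-tumour array in tumours 81 (7.32), 90 (7.01) and 123 (6.90) and within their range elsewhere.

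Upstream of the kinases, Nf2 was lower in tumours. It encodes merlin, a membrane-linked protein that brings LATS to the plasma membrane. Nf2 was 5.42, 5.73 and 5.39 in controls 10, 11 and 12 and 5.66, 5.60, 5.85, 5.56 and 5.34 in adjacent livers 81, 121, 123, 124 and 1931. The tumour arrays ran from 4.68 over a median of 5.14 to 5.54. Of the 8, 6 lay below the lowest non-tumour array, including all 3 of mouse 121, and tumours 81 and 124 lay within the range. The difference was -0.43 (SE 0.15, limma, adjusted p = 0.183) against adjacent liver and -0.34 (SE 0.18, limma, adjusted p = 0.443) against control. Each of the 4 mice with both tissues had less in the tumour, with differences of -0.84 in mouse 123, -0.51 in mouse 121, -0.28 in mouse 81 and -0.02 in mouse 124.

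Wwc1, which encodes KIBRA, a partner of merlin, took separate ranges among tumours, noticed after the values were seen. It was 5.02, 5.21 and 5.36 in tumours 81, 90 and 123, below every non-tumour array (5.90 to 6.42). On the 5 other tumour arrays, 3 of them from mouse 121, it was 6.01 to 6.29. The mean difference was -0.32 (SE 0.22, limma, adjusted p = 0.546) against adjacent liver and -0.64 (SE 0.26, limma, adjusted p = 0.329) against control. Vgll4, which competes with YAP for TEAD factors, was 6.88, 6.94 and 6.99 in controls 10, 11 and 12, and its tumour arrays ran from 6.09 over a median of 6.32 to 6.83, below all controls. The difference was -0.54 against control (SE 0.19, limma, adjusted p = 0.253) and -0.21 against adjacent liver (SE 0.16). The angiomotins, which hold YAP at cell junctions, were at 0.30 (Amot, SE 0.19), 0.07 (Amotl1, SE 0.16) and -0.04 (Amotl2, SE 0.15) against adjacent liver. Amotl2 and Lats2 are also known targets of YAP.

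Among targets, the matricellular genes Ccn1 and Ccn2, the usual readouts of YAP and TAZ, were uneven between tumours. Ccn2 was 6.41, 6.25 and 6.44 in controls 10, 11 and 12 and 6.64, 7.69, 6.12, 7.12 and 6.21 in adjacent livers 81, 121, 123, 124 and 1931. The tumours had 7.58 in mouse 81, 7.81 in mouse 90, 6.51 in mouse 93, 6.82 in mouse 123 and 7.21 in mouse 124, and those of mouse 121 had 7.76, 6.73 (Tumor2) and 7.93 (Tumor3). All tumour arrays lay above the controls, but the adjacent liver of mouse 121 was as high as the high tumours, so tumour and adjacent liver overlapped. The difference was 0.48 (SE 0.28, limma, adjusted p = 0.453) against adjacent liver and 0.86 (SE 0.33, limma, adjusted p = 0.299) against control. Ccn1 was 5.09, 5.97 and 6.29 in controls 10, 11 and 12 and 5.13, 6.50, 5.49, 6.37 and 6.37 in adjacent livers 81, 121, 123, 124 and 1931, and its tumour arrays spanned 5.85 to 7.30 with a median of 6.30. The groups overlapped, with control 10 and adjacent liver 81 lowest. Ccn1 differed by 0.39 (SE 0.32) from adjacent liver and by 0.58 (SE 0.37) from control (limma, adjusted p = 0.608 and 0.551), and was highest in tumour 124 (7.30). Without adjacent liver 81 the first was 0.18, and without control 10 the second was 0.24. In the 4 paired mice Ccn1 was higher in the tumour of each, by 0.21 to 0.93, and Ccn2 in 3 of 4.

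Ankrd1, a nuclear cofactor, was near the level of other groups except in mouse 121. Controls 10, 11 and 12 had 3.81, 4.04 and 4.19, and adjacent livers 81, 121, 123, 124 and 1931 had 3.73, 4.45, 4.12, 3.92 and 3.40. The unnumbered tumour and Tumor3 of mouse 121 both had 5.02, whereas its Tumor2 had 4.03 and tumours of the other mice had 3.85 to 4.31. Apart from that unnumbered tumour, Tumor3 and adjacent liver 121 (4.45), no array exceeded the overall median (4.43). The difference from adjacent liver was 0.28 (SE 0.18, limma, adjusted p = 0.494).

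Ajuba, a LIM-domain protein that binds LATS, had the smallest adjusted p among the 38 genes. It was 4.85, 5.07 and 4.95 in controls 10, 11 and 12 and 4.52, 5.35, 4.97, 5.05 and 4.56 in adjacent livers 81, 121, 123, 124 and 1931. In tumours it ran from 4.95 over a median of 5.73 to 6.35. Of the 8 arrays, 7 lay above the highest non-tumour array, including all 3 of mouse 121, the exception being tumour 93. The difference was 0.72 (SE 0.22, limma, adjusted p = 0.138), a fold of 1.65. It was higher in 4 of 4 paired mice, by 0.43 to 1.30. Without tumour 93 the difference was 0.86 and passed (limma, adjusted p = 0.0389). Over the other 13 omissions, each of 1 mouse from 1 group, it did not pass.

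Nt5e, which encodes the ecto-nucleotidase CD73 that makes adenosine, had the largest difference. It was 5.45, 4.70 and 4.75 in controls 10, 11 and 12 and 5.69, 4.70, 5.15, 4.58 and 4.39 in adjacent livers 81, 121, 123, 124 and 1931. The tumours had 4.44 in mouse 81, 7.60 in mouse 90, 5.88 in mouse 93, 7.35 in mouse 123 and 6.25 in mouse 124, and those of mouse 121 had 7.56, 6.63 and 5.36. Tumour 81 was thus as low as the non-tumour arrays while tumours 90 and 123 were far above them. The difference was 1.43 (SE 0.45, limma, adjusted p = 0.147), a fold of 2.70. In paired mice it was 2.19 in mouse 123, 1.81 in mouse 121, 1.67 in mouse 124 and -1.25 in mouse 81.

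Myof, a membrane-repair ferlin, was 5.32, 4.31 and 3.88 in controls 10, 11 and 12 and 4.30, 5.05, 4.33, 4.18 and 4.18 in adjacent livers 81, 121, 123, 124 and 1931. The tumour arrays ran from 4.22 over a median of 5.42 to 6.85, and the groups overlapped. Tumours 90 (6.85) and 81 (6.20) were highest, and Tumor2 of mouse 121 (4.22) and tumour 93 (4.34) were lowest. The overall median was 4.43, and differences of dim probe sets below it are compressed. Below it lay Tumor2, tumour 93, controls 11 and 12 and every adjacent liver except 121. The difference from adjacent liver was 1.04 (SE 0.40, limma, adjusted p = 0.227). Control 10 was the highest control and control 12 the lowest. The difference from control, 0.94, was 1.35 without control 10 (adjusted p = 0.273 with limma) and 0.62 without control 12.

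Crim1, a transmembrane protein that binds BMP ligands, was 5.99, 6.01 and 5.37 in controls 10, 11 and 12 and 5.82, 6.40, 6.15, 6.40 and 6.14 in adjacent livers 81, 121, 123, 124 and 1931. In tumours it ran from 5.72 over a median of 6.72 to 7.60, highest in tumours 81, 90 and 124 and lowest in tumour 93. The difference was 0.64 (SE 0.29, limma, adjusted p = 0.315) against adjacent liver and 1.04 (SE 0.34, limma, adjusted p = 0.224) against control. Without tumour 93 the difference from control was 1.26 and passed (limma, adjusted p = 0.0498).

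Tgfb2, a TGF-beta ligand, was 3.98, 3.80 and 3.78 in controls 10, 11 and 12 and 3.81, 4.31, 3.65, 4.08 and 3.69 in adjacent livers 81, 121, 123, 124 and 1931. The tumour arrays ran from 3.99 over a median of 4.34 to 5.26, all above the controls, and were highest in Tumor3 of mouse 121 and in tumour 124. Every control and adjacent array lay below the overall median (4.43), where differences of dim probe sets are compressed. The difference from adjacent liver was 0.56 (SE 0.18, limma, adjusted p = 0.154), and the tumour was higher in 4 of 4 paired mice.

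Gadd45a, a gene of the stress and DNA damage response, was 5.67, 6.65 and 5.88 in controls 10, 11 and 12 and 5.37, 6.05, 5.61, 5.51 and 5.83 in adjacent livers 81, 121, 123, 124 and 1931. Tumour values ran from 5.28 over a median of 6.08 to 6.74, with tumour 93 highest. It was 0.48 above adjacent liver (SE 0.22, limma, adjusted p = 0.308) and 0.09 above control (SE 0.25).

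Nuak2, an AMPK-related kinase, was the target that lay lowest in tumours. It was 4.18, 5.42 and 4.77 in controls 10, 11 and 12 and 4.49, 4.09, 4.88, 4.86 and 4.15 in adjacent livers 81, 121, 123, 124 and 1931. The tumour arrays ran from 3.15 over a median of 3.88 to 4.53. Of the 8, 6 lay below the lowest non-tumour array, among them the unnumbered tumour and Tumor2 of mouse 121. All tumour arrays but tumour 123 (4.53) lay below the overall median (4.43), where differences of dim probe sets are compressed. The difference was -0.66 (SE 0.25, limma, adjusted p = 0.224) against adjacent liver and -0.95 (SE 0.30, limma, adjusted p = 0.197) against control. It was lower in the tumour of 4 of 4 paired mice, with differences of -0.12 to -0.91.

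The 10 remaining targets each had an unadjusted p of 0.05 or more between tumour and adjacent liver. Asap1, an Arf GTPase regulator, was at 0.40 (SE 0.20), Ccdc80, a secreted matrix protein, at 0.46 (SE 0.34), and Ptpn14, a phosphatase that binds YAP, at 0.25 (SE 0.16). Axl, a receptor tyrosine kinase of macrophages and other cells, was at 0.24 (SE 0.36). Control 10 had an Axl value of 8.26, against 6.30 and 6.05 in the other controls. The difference from control, -0.08, was 0.61 without control 10 (limma, adjusted p = 0.45) and -0.49 without control 12. Tissue factor (F3), the Rac activator Dock5, Arhgef17, the RNA-binding protein Rbms3, the forkhead factor Foxf2 and the secreted kinase Fjx1 lay between -0.18 and 0.11.

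Seen tumour by tumour, the number of targets above the highest of the 8 non-tumour arrays ran from 2 to 12 of 20. Among the 20 targets, Tumor3 of mouse 121 had 12 above that range (60.0%, against 9.57% of all genes), its unnumbered tumour 10 (50.0%, against 13.7%) and tumour 90 8 (40.0%, against 17.2%). Tumours 81, 123 and 124 had 5 each (25%, against 16.2%, 16.1% and 11.8%), and Tumor2 of mouse 121 had 4 (20%, against 14.2%). Tumour 93 had 2 (10%, against 10.5%), Nt5e and Gadd45a, a share near that of all genes. Ccn1, Ccn2 and Ankrd1 were above the range together in the unnumbered tumour and Tumor3 of mouse 121, and in no other tumour.

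Of the 18 components, 2 to 5 lay above the range in each tumour. The share was 11.1% in tumours 81, 93 and 124, 16.7% in each tumour of mouse 121, 22.2% in tumour 90 and 27.8% in tumour 123, beside the shares of all genes given above. Below the lowest non-tumour array lay 3 to 7 of the 38 genes. The shares were 7.89% in tumour 81 (19.5% of all genes), 10.5% in tumour 90 (20.7%), 13.2% in tumour 93 (10.7%), 15.8% in tumour 123 (20%) and 7.89% in tumour 124 (14.3%). In mouse 121 they were 7.89% in the unnumbered tumour (17.9%), 18.4% in Tumor2 (18.7%) and 10.5% in Tumor3 (12.8%).

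**Figure D3:**
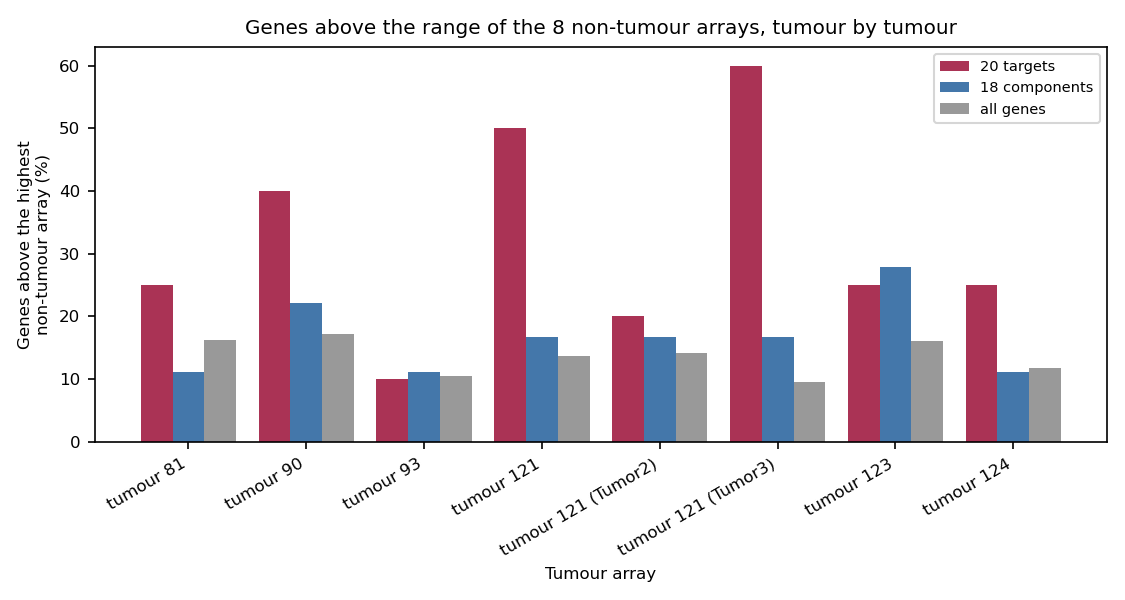
Percent of genes (y axis) above the highest of the 8 non-tumour arrays on each tumour array (x axis), for the 20 targets, the 18 components and all genes. Targets reach 60.0% in Tumor3 of mouse 121 and 10% in tumour 93, where all genes are at 10.5%.

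The 3 tumours of mouse 121 had a spread in the targets like that between mice. The spread between mice counts mouse 121 as the mean of these same 3 tumours, so these spreads are not independent. Spread within a mouse could be seen in mouse 121 only. The median SD of the 20 targets was 0.37 over those 3 tumours and 0.36 over the 6 tumour mice, against 0.18 and 0.22 over all genes; for components it was 0.17 and 0.27. Ccn2 was 7.76 in the unnumbered tumour and 7.93 in Tumor3 but 6.73 in Tumor2, and Myof was 5.83, 5.36 and 4.22. Ajuba, by contrast, was 5.86, 6.11 and 5.92, and Wwtr1 was 7.41, 7.34 and 7.39 in the same order.

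**Figure D4:**
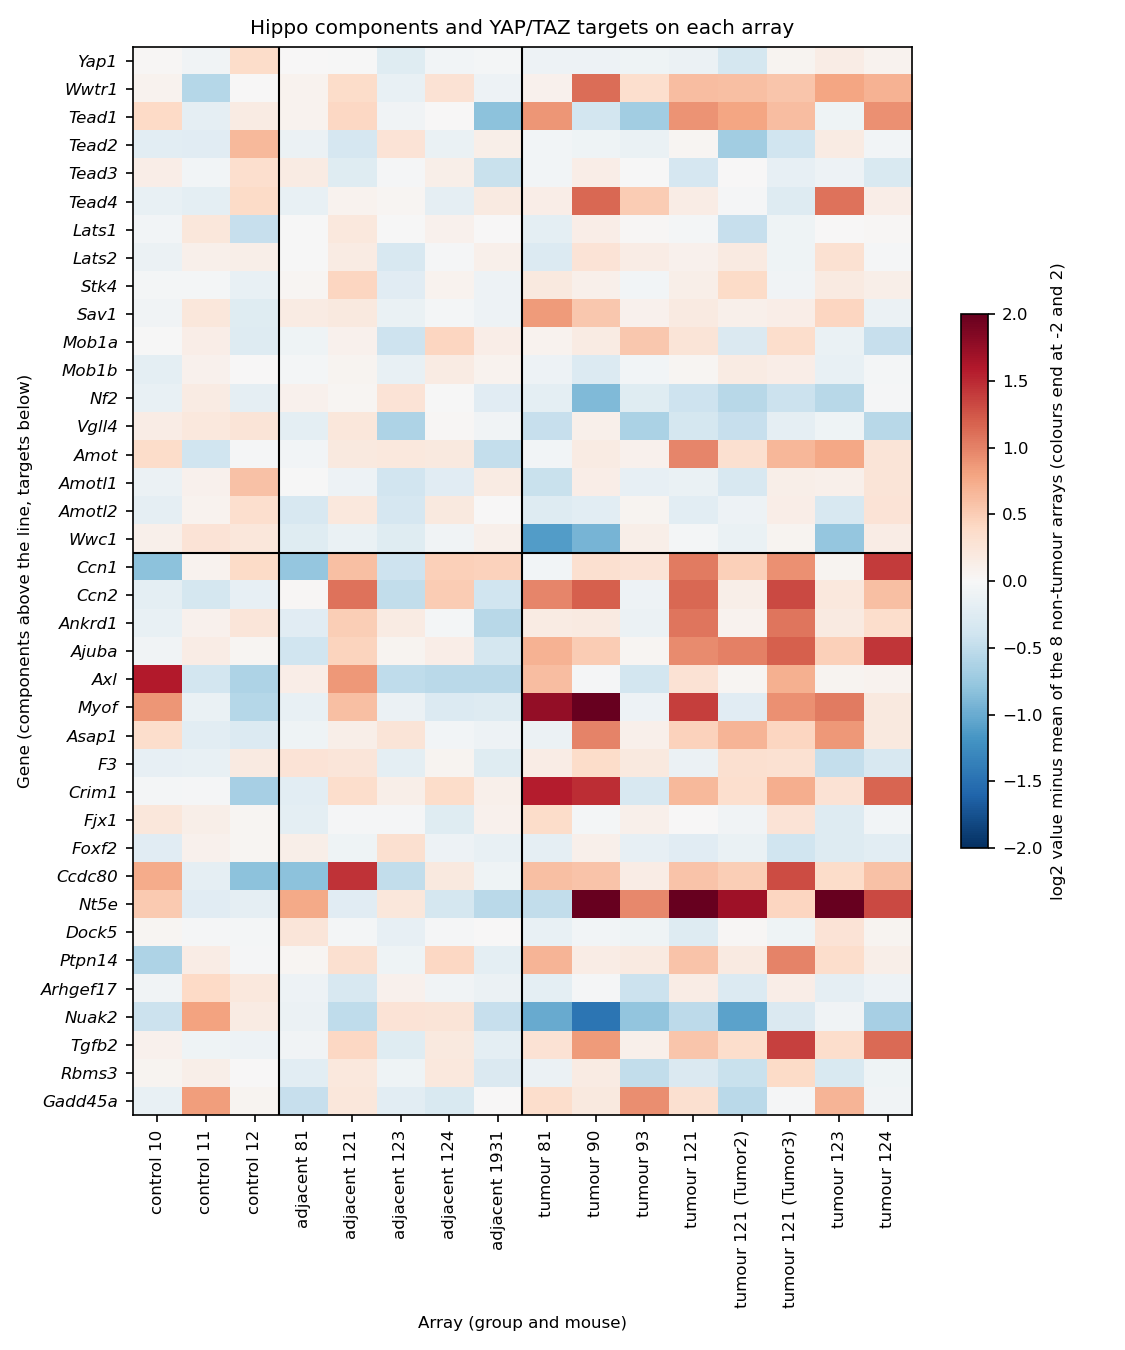
Log2 value of each gene (y axis) on each of the 16 arrays (x axis) minus the mean of the 8 non-tumour arrays, with colours that end at -2 and 2. Red marks values above that mean. Before the mean is taken away, the log2 value in tumour 90 was 7.60 for Nt5e and 6.85 for Myof. Myof was 4.34 in tumour 93 and 4.22 in Tumor2 of mouse 121.

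Adjacent liver of mouse 121 was also unlike the other adjacent livers. It was the highest of the 5 in 17 of 38 genes (8 components and 9 targets), where it was the highest in 17.6% of all genes. Those targets were Ccn1, Ccn2, Ankrd1, Ajuba, Axl, Myof, Ccdc80, Tgfb2 and Gadd45a. Ccdc80 was 6.98 there and 4.71 to 5.72 in the other adjacent livers.

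Markers of other cells moved with some of these values. The 12 stellate cell and fibroblast markers had a mean log2 value of 5.67 to 5.99 in controls, 5.40 to 6.37 in adjacent livers and 5.76 to 6.68 in tumours; 0 of 12 were below the filter on low values. Between tumour and adjacent liver 0 of them passed after adjustment, 6 had an unadjusted p under 0.05 with a higher value and 2 with a lower one. The 5 arrays with the highest mean of this list were adjacent liver 121, tumours 81 and 90, and the unnumbered tumour and Tumor3 of mouse 121, and these were also the 5 with the highest Ccn2. For Myof, Crim1 and Tgfb2, 4 of the 5 highest arrays were among them, for Ccn1, Ankrd1 and Ajuba 3 of 5, and for Nt5e and Wwtr1 2 of 5. The part of stellate cells or fibroblasts in these values was not tested.

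**Figure D5:**
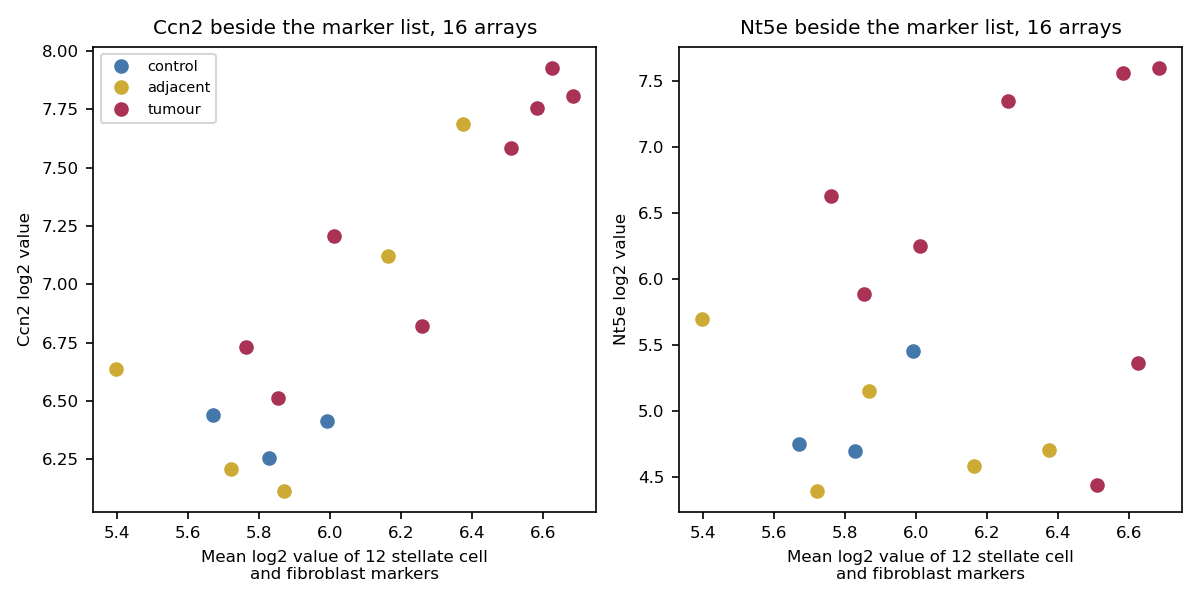
Log2 value of Ccn2 (left) and Nt5e (right; y axes) against the mean log2 value of 12 stellate cell and fibroblast markers (x axis), 1 point per array, coloured by group. The 5 arrays highest in the markers are the 5 highest in Ccn2, whereas 2 of them are among the 5 highest in Nt5e.

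The 8 measured cholangiocyte markers had means of 3.98 to 4.13 in controls, 3.84 to 4.20 in adjacent livers and 4.18 to 5.26 in tumours, highest in the unnumbered tumour (5.01) and Tumor3 (5.26) of mouse 121; Epcam, Cftr, Muc1 and Cldn7 were below the filter on low values. Of these markers Tspan8 differed from adjacent liver by 3.31 and Sox9 by 0.89, the 2 of 8 with an unadjusted p under 0.05, and the other 6 by -0.07 to 0.33. The mean of 10 endothelial markers was 6.32 to 6.66 in controls, 6.25 to 6.56 in adjacent livers and 5.81 to 6.84 in tumours. Single endothelial markers differed both ways from adjacent liver, 4 higher and 2 lower at an unadjusted p under 0.05, from 1.69 for Emcn to -2.41 for Clec4g, a marker of sinusoids. The 7 measured proliferation genes had means of 3.91 to 4.92 in controls, 4.02 to 4.84 in adjacent livers and 4.29 to 6.53 in tumours, lowest in tumour 90. All 7 were higher in tumours than in adjacent liver at an unadjusted p under 0.05, with a median difference of 1.20, and 0 of 7 passed after adjustment (limma). The 8 macrophage markers had means of 4.79 to 6.95 in tumours and 5.75 to 7.06 in adjacent livers, with 3 of 8 lower in tumours at an unadjusted p under 0.05. Lymphocyte markers (6 measured) reached 5.10 in adjacent liver 121, against 3.72 to 3.95 in the other adjacent livers. The means of the 5 mesothelial and of the 6 muscle markers lay between 3.78 and 4.26 on all arrays, and 4 of each list were below the filter on low values. The part of these cells in the results was not tested.

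A wider list of the pathway was counted in the same way. It was drawn up with earlier results of these data known, so its counts are not independent support for those above. Of 33 further regulators measured (34 listed), 0 passed after adjustment between tumour and adjacent liver, 8 were higher (24.2%, against 6.95% of all genes) and 2 lower (6.06%, against 8.32%) at an unadjusted p under 0.05, and the median difference was 0.04, against -0.03 over all genes. Those with the smallest p were Ndrg1 (1.43, SE 0.32), a stress-response gene, Map4k4, a kinase that can activate LATS (0.95, SE 0.26), the casein kinase Csnk1e (0.96, SE 0.27) and the protocadherin Fat1 (0.83, SE 0.23). Their adjusted p ran from 0.0718 to 0.115 with limma.

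Of 23 further targets measured (25 listed), 0 passed after adjustment, 11 were higher (47.8%, against 6.95% of all genes) and 0 lower (against 8.32%) at an unadjusted p under 0.05, and the median difference was 0.51, against -0.03 over all genes. The smallest p belonged to Anln, a cytokinesis protein (1.28, SE 0.27), the collagen gene Col8a1 (0.78, SE 0.17), the IGF binding protein gene Igfbp3 (2.34, SE 0.58) and the growth regulator Myc (1.30, SE 0.37). Their adjusted p ran from 0.0634 to 0.123 with limma. Sox9, also higher at an unadjusted p under 0.05, is in the cholangiocyte list above as well, so these lists are not separate. Whether the higher targets rose with the proliferation genes above was not tested. The median difference from adjacent liver was 0.34 over the 6 of the 20 targets with a GGAATG match upstream and 0.48 over the 7 with a promoter but no match.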

How the data were processed

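Per the labels' protocols, total RNA was extracted with Trizol, amplified to cDNA with a whole-transcriptome amplification kit and labelled with biotin. The deposited values are log2 expression values per probe set, made by the authors with RMA and Partek per the submitters' processing notes, which give neither versions nor roles. The chip model is not given in the sources used here, nor is a genome build. RMA equalises array distributions and compresses changes of dim probe sets; array medians lay between 4.37 and 4.50.

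The platform annotation paired 23281 of 24479 probe sets with 1 symbol and 1198 with none; the brighter probe set of a repeated symbol was kept, which left 23279 genes. All 3 groups were fitted together with limma 3.58.1 (R 4.3.3; lmFit, eBayes with an intensity trend), with Benjamini-Hochberg adjustment over the whole table and a threshold of 0.05. The fit was tested on simulated data. Titles number the mice, so p-values measure the spread between mice; that adjacent liver 1931 and tumour 93 come from different mice was assumed. Mouse numbers pair tumour and adjacent liver of 4 mice, whose deviations from the group means correlated at 0.0349 to 0.0998; the fits with the mouse as a block were alternatives. Other alternatives were quantile normalization, median centring, the filter on low values, no trend and 2-group fits. Mouse 121 or repeated symbols were also handled in other ways, and 1 mouse was left out of 1 group at a time. In these 14 omissions the other tissue of a paired mouse stayed in. No batch is given in the labels.

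Values by array are given for Yap1, Wwtr1, Ccn1, Ccn2 and Ankrd1 and for the 10 members with the largest tumour to adjacent difference at an unadjusted p under 0.05; of wider lists, the 4 with the smallest p are named, and others were named after their values were seen. The members and lists were chosen with earlier results of these data known.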

Additional observations from a re-analysis of the deposited data

Results flagged for a closer look

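In 4 genes 1 mouse lay far from the rest of its group by a gap test (Dixon) that chance meets in about 1 in 20 groups; 76 groups were examined, so 4 is about the number that chance gives. Yap1 was 7.75 in adjacent liver 123, against 7.95 to 8.01 in the other adjacent livers. Myof was 5.05 in adjacent liver 121, against 4.18 to 4.33. Stk4 was 6.53 in tumour 93, against 6.69 to 6.79 in the other tumour mice. Foxf2 was 3.14 in tumour 90, against 2.78 to 2.87, all below the filter on low values.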

How the results depend on the processing

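No gene of the 38 passed after adjustment under any of the 10 settings other than the omissions of 1 mouse from 1 group. Treating mice as a random replicate block, 0 passed between tumour and adjacent liver (206 of all genes; smallest adjusted p of the 38 0.0616, Ajuba), and with a fixed replicate block in the 4 paired mice 0 passed (0 of all genes). Over all genes the count between tumour and adjacent liver was 36, and ran from 5 to 743 when a mouse was left out, the highest without tumour 93; between tumour and control it was 6 and ran from 0 to 242. On leaving out 1 mouse from 1 group at a time, the 38 gave 0 to 1 genes past the threshold in each comparison with tumours. Genes higher than adjacent liver at an unadjusted p under 0.05 numbered 8 (5 to 11 over omissions; 5 with quantile normalization) and lower ones 2 (1 to 3). Against control, 7 were higher (5 to 11) and 4 lower (1 to 5). Between adjacent and control liver 0 to 2 were lower over omissions, and 1 with no intensity trend or with only the 2 groups fitted. Without the outer part of the promoter windows (150 bases before the start kept) 31.4% of member windows held GGAATG, against 9.76% of all.

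Signs changed in genes with differences near 0. Under the random block, Tead3 was at -0.0195 and F3 at 0.0093 for tumour against adjacent liver. Under the fixed block, Tead2 was at 0.0027, Tead3 at -0.1594, Mob1a at -0.1066 and Dock5 at 0.0163 for tumour against adjacent liver. Under quantile normalization, Tead3 was at -0.0388 for tumour against adjacent liver. Under median centring, Yap1 was at -0.0069, Tead3 at -0.0329 and Mob1a at -0.0175 for tumour against adjacent liver. Under 8 separate tumour values, Tead3 was at -0.0164 and F3 at 0.0278 for tumour against adjacent liver. Under the unnumbered tumour of mouse 121 alone, Tead2 was at 0.0173 and Tead3 at -0.0252 for tumour against adjacent liver. Under the random block, Dock5 was at -0.0192 and Gadd45a at -0.0067 for tumour against control liver. Under quantile normalization, Dock5 was at -0.0195 for tumour against control liver. Under median centring, Dock5 was at -0.0090 for tumour against control liver. Under 8 separate tumour values, Dock5 was at -0.0233 and Gadd45a at -0.0170 for tumour against control liver. Under the unnumbered tumour of mouse 121 alone, Dock5 was at -0.0237 for tumour against control liver. Omitting mice for tumour against adjacent liver gave Yap1 -0.0159 to 0.0499, Tead2 -0.1225 to 0.0311, Tead3 -0.0861 to 0.0659, Mob1a -0.0916 to 0.1182, Amotl2 -0.1108 to 0.0264, Ajuba 0.5757 to 0.8557, F3 -0.0823 to 0.0864, Dock5 -0.0734 to 0.0428 and Arhgef17 -0.1032 to 0.0079. Omitting mice for tumour against control liver gave Tead1 -0.0472 to 0.2930, Tead2 -0.3074 to 0.1373, Lats1 -0.1172 to 0.2233, Lats2 -0.0265 to 0.1180, Mob1a -0.0150 to 0.1922, Mob1b -0.1302 to 0.0080, Axl -0.4896 to 0.6128, F3 -0.0117 to 0.1721, Crim1 0.8265 to 1.2577, Dock5 -0.0565 to 0.0275 and Gadd45a -0.1138 to 0.3786. Ajuba and Crim1 kept their sign and passed only without tumour 93, as given above. The cause of these changes was not tested.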
